A study of Mus musculus with 15 samples.

Results

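The genes described here are 7 genes of major histocompatibility complex (MHC) class II antigen presentation, H2-Aa, H2-Ab1, H2-Eb1, H2-DMa, H2-DMb1, Cd74 and Ciita, measured in CD4 T cells sorted from mouse gut. They were picked by gene name from 34761 genes on the array, with earlier results of these arrays known, so their levels and differences are given as a description and without a test. The 7 genes had 9 probes, and all 7 passed the filter that left 25984 genes for testing. The study put 15 single-colour Agilent arrays on CD4 T cells that had been flow-sorted out of the lamina propria, the layer under the epithelium of the small intestine, in male mice. The groups, with 5 arrays each, were mice 10 days into a high-fat diet (HFD), mice 30 days into the same diet, and controls on normal chow. The diet was meant to alter the gut microbiota, and the title calls the dieted mice prediabetic and diabetic. The labels give the controls no day and none of the mice a strain, age or genotype, so time on the diet and age cannot be told apart, and whether each sample was a mouse of its own is not stated.

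MHC class II molecules are pairs of an alpha and a beta chain that carry peptides from the endosome to the surface of an antigen-presenting cell, where CD4 T cells read them. The invariant chain, encoded by Cd74, fills the groove of a new alpha and beta pair until H2-DM exchanges its last fragment for a peptide. Ciita is the coactivator that switches these genes on together, through promoter elements bound by the RFX complex, CREB and NF-Y. Dendritic cells, macrophages and B cells are the classical carriers of class II, and mouse T cells are known for making little of it themselves.

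The level of a gene is log2 of the processed intensity of its probe minus the 75th percentile of all probes on the same array, so 0 is the level of a fairly bright probe. A spot counts as detected where the scanner software marked it well above background. Of 12 CD4 T cell markers 11 had a probe, and all 11 were detected on all 15 arrays. The share of spots detected averaged 58.5% ± 2.91 at day 10, 51.3% ± 5.48 at day 30 and 63.8% ± 12 in control (SD, n = 5 each), with control replicate 1 highest at 82.0%. Slide 1 held the 5 controls and day 10 replicates 1 to 3, and slide 2 held day 10 replicates 4 and 5 and the 5 day 30 arrays, so no slide held both control and day 30. In the fit across all genes no gene passed an adjusted p of 0.05 in any of the 3 comparisons by limma, so the background of calls was 0% each time. At an unadjusted p under 0.05 there were 673 genes at day 10 against control (2.59%), 1336 at day 30 against control (5.14%) and 1065 at day 30 against day 10 (4.1%).

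H2-Aa encodes the alpha chain of the I-A molecule. Its level was lower on most arrays of both dieted groups than on control arrays, with means of -4.35 ± 2.27 at day 10, -3.70 ± 1.61 at day 30 and 0.82 ± 2.82 in control (SD, n = 5 each). It has a single probe, at chr17:34421285-34421344 (build mm9, minus strand), which starts at base 227 of the annotated transcript. The probe is shown because every statement on H2-Aa rests on it.

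H2-Aa probe: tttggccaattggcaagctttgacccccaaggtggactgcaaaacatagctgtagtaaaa

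At day 10 the 5 arrays had H2-Aa levels of -0.36, -5.91, -5.57, -5.14 and -4.75, in the order of replicates 1 to 5. At day 30 they had -5.49, -2.91, -4.64, -1.36 and -4.11. The 5 control arrays had -3.56, 0.38, 4.18, 1.36 and 1.74. Of the day 10 arrays 4 of 5 lay below every control, and of the day 30 arrays 3 of 5 did. The dieted groups overlapped with control only through the low control replicate 1, the array with the highest share of detected spots. Day 10 replicate 1, the highest of the dieted arrays, and day 30 replicates 2 and 4 lay above it and below every other control. The spot was detected on 1 of 5 arrays at day 10, on 2 of 5 at day 30 and on 5 of 5 in control. In a bulk sample, fewer cells that carry the transcript and less RNA per cell cannot be told apart.

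The difference in H2-Aa level was -5.17 ± 1.33 for day 10 minus control and -4.52 ± 1.33 for day 30 minus control (log2, SE of the fit). Both comparisons use the same 5 controls. Day 30 minus day 10 was 0.64 ± 1.33, less than its error. Values under background have no order, and raising them to the lowest detected signal of their array gave -4.15 at day 10 and -3.65 at day 30 against control. With background corrected by normexp the differences were -2.83 and -2.63. With slide as a block they were -4.77 and -3.53, the first of which rests on slide 1 alone. The deposited log2 table, which has a compressed scale and values for H2-Aa on 1 day 10, 2 day 30 and 4 control arrays only, gave -0.80 and -1.79.

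Cd74, the invariant chain, did the opposite of H2-Aa in its group means. Its mean level was 2.46 ± 1.06 at day 10, 3.98 ± 0.79 at day 30 and 1.44 ± 1.33 in control (SD, n = 5 each), and its probe, on chromosome 18 and starting at base 1183 of the transcript, was detected on all 15 arrays. At day 10 the arrays had Cd74 levels of 3.28, 2.19, 3.45, 2.59 and 0.79. At day 30 they had 4.68, 3.29, 4.93, 3.79 and 3.23. The controls had -0.12, 2.67, 2.97, 0.91 and 0.74. Every day 30 array was above every control array, while the day 10 arrays overlapped both other groups. Cd74 was the only 1 of the 7 genes whose day 30 and control arrays did not overlap. Over all 25984 tested genes such a gap was seen with day 30 higher in 54 (0.208%) and with day 30 lower in 105 (0.404%). Cd74 was picked with these values known.

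The Cd74 difference was 1.02 ± 0.64 for day 10 minus control, 2.55 ± 0.64 for day 30 minus control and 1.53 ± 0.64 for day 30 minus day 10 (log2, SE of the fit). With slide as a block the values were 1.54, 3.83 and 2.29, of which the second joins the slides through the day 10 arrays. The Cd74 level ran against the share of detected spots (Pearson's r = -0.72 over the 15 arrays, as a description), and when that share was a covariate the differences were 0.64, 1.66 and 1.01. The part of the detection share in the Cd74 differences was not tested further. Leaving out control replicate 1, the lowest control, gave 0.63 for day 10 minus control.

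**Figure D1:**
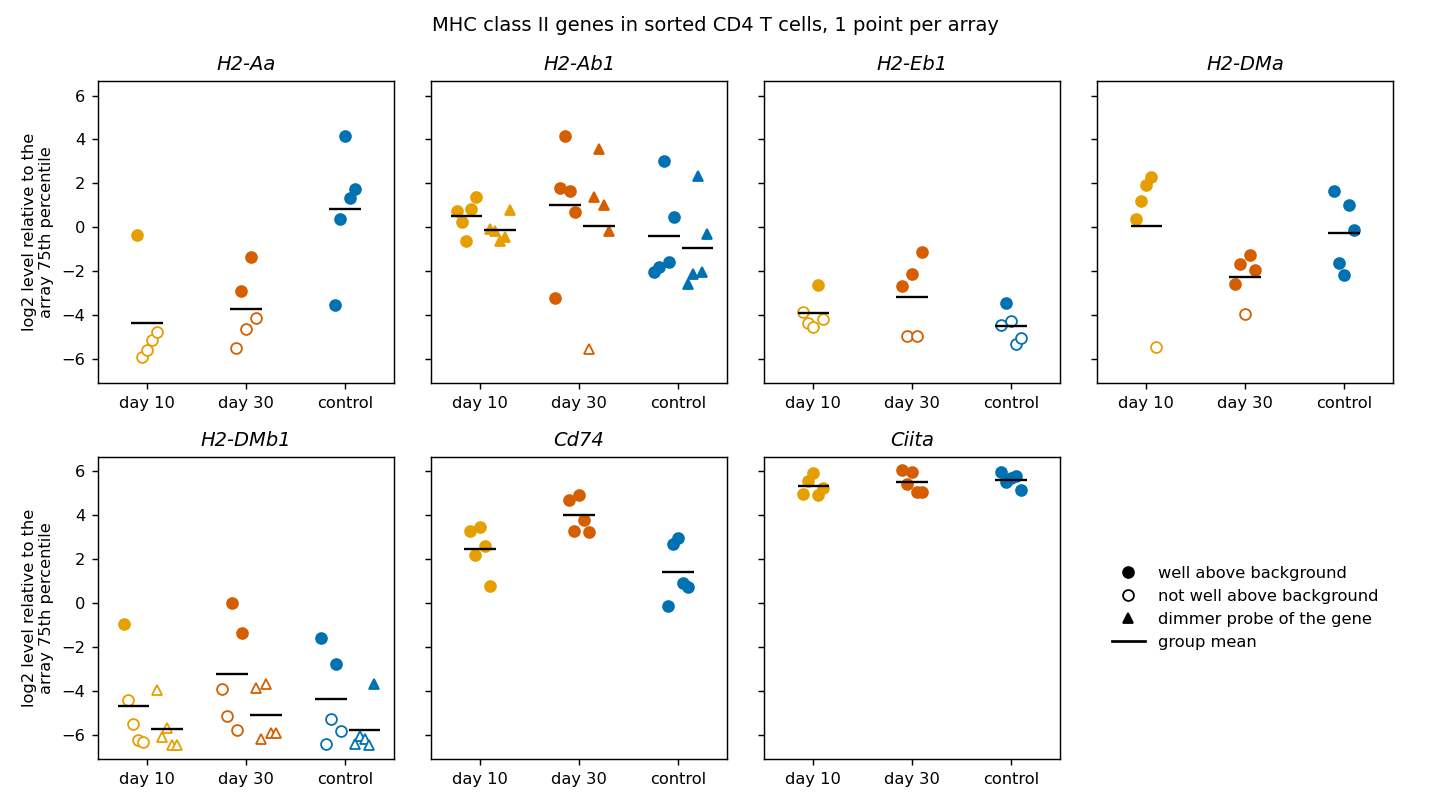
Level of each MHC class II gene on each array (log2 relative to the array's 75th percentile, shared vertical axis) at day 10, day 30 and in control, with filled symbols for spots well above background, triangles for the dimmer probe of H2-Ab1 and H2-DMb1, and bars for group means. H2-Aa is filled on all 5 control arrays and on 3 dieted arrays, Cd74 at day 30 lies above every control, and Ciita stays within 1.10 on all 15 arrays.

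Set array by array, H2-Aa and Cd74 did not mirror each other. Control replicate 3 was highest of its group in both genes, at 4.18 for H2-Aa and 2.97 for Cd74, and control replicate 1 was lowest in both, at -3.56 and -0.12. Across the 15 arrays Pearson's r between the genes was -0.24, and after the group means were taken out it was 0.36, given as a description of arrays that share slides and groups. The opposite directions thus lay between the group means and not between the arrays of a group. Both probes being single, neither gene's direction could be checked with another probe.

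**Figure D2:**
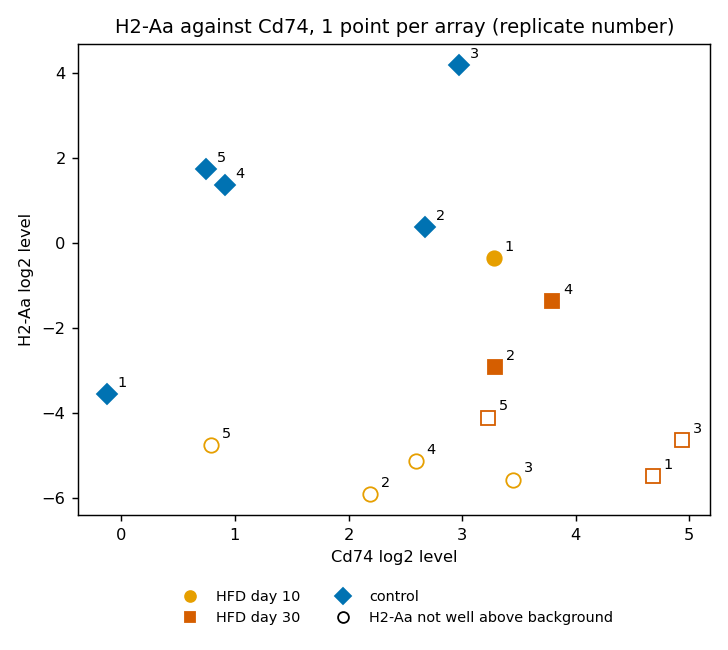
H2-Aa level (vertical) against Cd74 level (horizontal), both log2 relative to the array's 75th percentile, 1 point per array with its replicate number, by group; open symbols have H2-Aa not well above background. The day 30 arrays lie at the lower right, with Cd74 from 3.23 to 4.93, and 4 of the 5 controls lie at the top, with H2-Aa from 0.38 to 4.18.

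H2-Ab1 encodes the beta chain that pairs with H2-Aa, and its group means ran with Cd74 and not with H2-Aa, though within its spread. It has a brighter probe at chr17:34406296-34406355 and a dimmer probe at chr17:34406305-34406363 (build mm9, plus strand), which share 51 bases and differ in a single base of them, T51C, counted from 1 at the 5′ end of the brighter probe. The stretch around that base is shown, with the differing base in capitals, because the probes serve as a check on each other.

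H2-Ab1 brighter probe: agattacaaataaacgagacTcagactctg
H2-Ab1 dimmer probe: agattacaaataaacgagacCcagactctg

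On the brighter probe the day 10 arrays had H2-Ab1 levels of 0.74, 0.25, -0.60, 0.82 and 1.40. The day 30 arrays had -3.21, 1.77, 4.14, 1.66 and 0.70. The controls had -2.05, -1.79, 3.03, -1.57 and 0.47. The groups overlapped fully, and both the highest and the lowest array were day 30 arrays. The difference was 0.90 ± 1.16 for day 10 minus control and 1.40 ± 1.16 for day 30 minus control, and 0.83 and 1.0 on the dimmer probe. Single arrays moved these values by over 1.5 times. Leaving out control replicate 1 gave 0.49 for day 10 minus control, and leaving out control replicate 2 gave 0.55. Control replicate 3 left out gave 1.76 at day 10 and 2.25 at day 30. Day 30 minus control was 0.61 if day 30 replicate 3 was dropped and 2.45 if day 30 replicate 1 was. The probes, which share most of their sequence, followed each other over the arrays (r = 0.97). With the detection share as a covariate the day 30 difference was -0.02.

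H2-Eb1, the beta chain of the I-E molecule, was not well above background on most arrays. Its probe, at chr17:34453075-34453134 (build mm9), was detected on 1 of 5 arrays at day 10, 3 of 5 at day 30 and 1 of 5 in control. The day 10 arrays had levels of -3.83, -4.35, -4.54, -2.61 and -4.19. The day 30 arrays had -2.65, -4.96, -2.12, -4.96 and -1.12. The controls had -4.44, -3.44, -4.25, -5.33 and -5.06. The 3 detected day 30 arrays were above every control, and the other day 30 arrays were among the controls. The difference was 0.60 ± 0.81 for day 10 minus control and 1.34 ± 0.81 for day 30 minus control. Without day 10 replicate 4 the first was 0.28, and without day 30 replicate 5 the second was 0.83. Its partner alpha chain H2-Ea was detected on 0 arrays at day 10, 1 at day 30 and 3 in control, too few to be tested.

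H2-DMa and H2-DMb1 encode the chains of H2-DM, the peptide exchange factor, and their levels did not run together. H2-DMa, whose probe spans chr17:34274300-34274863 (build mm9), was detected on 4, 4 and 5 of 5 arrays at day 10, at day 30 and in control. At day 10 its levels were 0.36, 1.21, 1.91, 2.27 and -5.44. At day 30 they were -2.58, -1.68, -3.94, -1.27 and -1.93. In control they were 1.67, -1.61, -2.15, 1.03 and -0.12. The day 30 arrays were low as a group, below 4 of the 5 day 10 arrays, and overlapped with the lower controls. The difference was 0.30 ± 1.24 for day 10 minus control, or 1.67 without day 10 replicate 5, and it was -2.04 ± 1.24 for day 30 minus control and -2.34 ± 1.24 for day 30 minus day 10. With slide as a block the day 30 minus control difference changed sign to 0.70, and day 30 minus day 10 within slide 2 was -0.70. Slide 2 held only replicates 4 and 5 of day 10, at 2.27 and -5.44, and H2-DMa was not detected on replicate 5. Each of these slide values rests on that array.

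H2-DMb1 has a brighter probe at chr17:34297109-34297168 (build mm9), detected on 1 of 5 arrays at day 10, 2 of 5 at day 30 and 2 of 5 in control. Its levels were -0.95, -4.39, -5.49, -6.21 and -6.32 at day 10, -3.92, -5.16, -0.01, -5.76 and -1.37 at day 30, and -1.58, -6.39, -5.29, -2.76 and -5.82 in control. No group stood apart, and the differences from control were -0.30 at day 10 and 1.12 at day 30, the last of which was 3.78 with slide as a block. That value joins the slides through day 10 replicates 4 and 5, at -6.21 and -6.32, where the probe was not detected. Leaving out single arrays moved the main differences from -1.24 to 0.39 and from 0.32 to 1.82. Its dimmer probe, at chr17:34290109-34290168, was detected on 1 of 15 arrays, control replicate 5, and the probes had an r of 0.37 over the arrays. A near copy, H2-DMb2, lies in the same locus, and whether these probes tell the copies apart was not tested.

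Ciita, the coactivator, was bright and even. Its levels were 4.96, 5.55, 5.94, 4.94 and 5.25 at day 10, 6.03, 5.40, 5.97, 5.06 and 5.03 at day 30, and 5.98, 5.50, 5.70, 5.77 and 5.14 in control. All 15 arrays fell within 1.10 of each other, the narrowest range of the 7 genes, and the differences from control were -0.29 ± 0.28 at day 10 and -0.12 ± 0.28 at day 30. The mean signal of this probe was at the 98.0th percentile of all probes. The probe lies at chr16:10526568-10526627 (build mm9, plus strand) and starts at base 4269 of the transcript. What it bound was not tested. The deposited log2 table has Ciita values on 6 of 15 arrays and gave -1.02 for day 30 minus control.

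**Figure D3:**
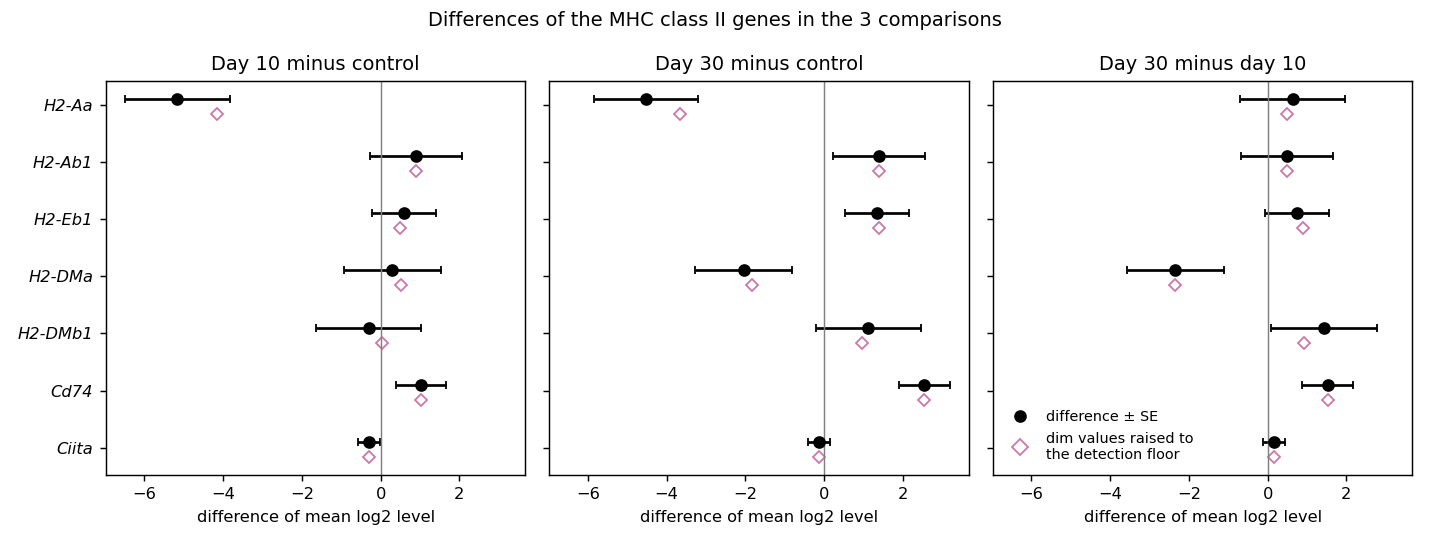
Difference of mean log2 level for each MHC class II gene (brighter probe where there are several) for day 10 minus control, day 30 minus control and day 30 minus day 10, with bars for the SE of the fit and open diamonds for the difference after dim values were raised to the detection floor of their array. H2-Aa stands at -5.17 and -4.52 against control, Cd74 at 1.02 and 2.55, and Ciita within 0.29 of 0.

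The measured levels of the 7 genes did not vary as a set. Over their 21 pairs Pearson's r across the arrays ran from -0.42 to 0.50 with a median of -0.01, and 12 of 21 were below 0. The highest was that of H2-Eb1 with Cd74 and the lowest that of H2-Aa with H2-Eb1. H2-Aa and its partner H2-Ab1 had an r of 0.12, or 0.51 with group means taken out.

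The genes most like H2-Aa over the 15 arrays, among 16287 named and tested genes, were Phospho1 (Pearson's r = 0.91), Cybb (0.91), Ufsp2 (0.85), Emc9 (0.84) and Utp14a (0.84). At day 10, at day 30 and in control, H2-Aa was detected on 1, 2 and 5 of 5 arrays. Phospho1 had 1, 1 and 4, and Cybb, the catalytic subunit of the phagocyte NADPH oxidase, 1, 2 and 4. Ufsp2 had 1, 0 and 5, Emc9 had 2, 0 and 5, and Utp14a had 1, 4 and 5. These r values thus rest in part on values below background. The genes most like Cd74 were Csnk2a2 (r = 0.87), the ribosomal protein gene Rpl13a (0.86), the guanylate-binding protein gene Gbp11 (0.85), Ric8a (0.84) and Wdr90 (0.84), each detected on all 15 arrays. The other class II genes described here were compared through their own r values, on their brighter probes, and not through this ranking. Their highest r was 0.12 with H2-Aa (H2-Ab1) and 0.50 with Cd74 (H2-Eb1). Both values lay below those of the 5 genes named for each. Those 5 were picked as the highest of 16287 genes, so this gap is no result about the class II genes.

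Promoter sequences (250 bases before to 50 after the start site, RefSeq, build GRCm38.p6) were on hand for 4 of the 7 genes. The motif searched was TGATTGG, the core of the Y box bound by NF-Y, on both strands (its other strand reads CCAATCA). It was found in H2-Aa, H2-Eb1 and H2-DMb1 at -50, -61 and -63 from the start site, and in neither promoter of H2-DMa. It was also found in the 4 other class II genes H2-Oa, H2-Ob, H2-Eb2 and H2-DMb2, against 7.82% of 32851 promoters. The 3 windows are shown, motif in capitals, because these genes carry the same letters and their group means did not run alike. They lie at chr17:34287856-34287925 (minus strand) for H2-Aa, chr17:34305754-34305823 (plus strand) for H2-Eb1 and chr17:34153076-34153145 (plus strand) for H2-DMb1.

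H2-Aa promoter: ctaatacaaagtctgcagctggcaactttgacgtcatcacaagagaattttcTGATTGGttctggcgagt
H2-Eb1 promoter: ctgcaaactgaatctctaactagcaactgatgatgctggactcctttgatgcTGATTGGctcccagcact
H2-DMb1 promoter: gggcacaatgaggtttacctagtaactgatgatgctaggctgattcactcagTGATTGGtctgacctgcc

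The match is a description of these letters and shows no binding.

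Markers of cells that carry class II were read beside these values. Of 24 dendritic cell and macrophage markers, 11 to 14 were detected per array at day 10, 9 to 16 at day 30 and 9 to 23 in control. Their summed level ran from 371 to 575 at day 10, 404 to 898 at day 30 and 382 to 487 in control (multiples of the array's 75th percentile), of which Itgam alone made 96.1%. Without Itgam it ran from 12 to 21.2, 13.6 to 31.9 and 14.9 to 27.7 in the same groups. Of these 24 markers, Itgam, Csf1r, Flt3, Fcgr1 and Apoe were detected on all 15 arrays, and Zbtb46, Xcr1 and Cd68 on 14. C1qc and Itgax, encoding CD11c, were detected on 1 array, and Spi1, Batf3, C1qa and Clec10a on 2. The other markers lay in between. In replicates 1 to 5 the count of detected markers was 14, 12, 13, 12 and 11 at day 10, 16, 12, 9, 14 and 12 at day 30, and 23, 14, 12, 17 and 9 in control. In the same order the share of all spots detected was 61.9%, 60.3%, 55.6%, 55.3% and 59.3% at day 10, 48.7%, 53.7%, 45.2%, 59.5% and 49.6% at day 30, and 82.0%, 66.0%, 50.9%, 64.6% and 55.5% in control. The control array with the most markers, replicate 1, thus also had the most spots detected of any kind.

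Of 13 B cell markers, 7 to 8 were detected at day 10, 6 to 9 at day 30 and 7 to 11 in control, with summed levels of 33.9 to 49.7, 35.5 to 52.0 and 35.3 to 56.3. Ms4a1, encoding CD20, was detected on 0 arrays and Cd79a on 8, while Pax5, Cd22, Fcer2a and Cr2 were detected on all 15 and Cd79b on 13. Cd22 alone made 86.6% of the summed level, which without it ran from 3.00 to 10.6 at day 10, 3.83 to 9.19 at day 30 and 3.92 to 8.11 in control. Group 3 innate lymphoid cells can carry class II as well, and 7 to 8 of their 9 markers were detected at day 10, 4 to 9 at day 30 and 7 to 8 in control. Intestinal epithelium, which can carry class II too, had 8 to 11, 7 to 11 and 10 to 14 of its 16 markers detected in the same groups, and plasma cells had 3 to 7, 4 to 5 and 4 to 7 of 7. The part of other cells in the class II levels was not tested.

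The rest of the pathway was followed in 54 genes on 4 lists, of which 48 could be tested. None passed an adjusted p of 0.05 in any comparison by limma. At an unadjusted p under 0.05 there was 1 gene of 48 at day 10 against control and 2 at day 30 against control, all higher, and 1 at day 30 against day 10, also higher. Over all tested genes the shares higher at that threshold were 0.889%, 2.47% and 1.82%, and the shares lower were 1.7%, 2.67% and 2.28%.

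The list of other class II chains and peptide loading was split in both directions. Of its 10 tested genes 5 were higher and 5 lower at day 10 than in control, and 3 higher and 7 lower at day 30, with median differences of -0.01 and -0.02, beside -0.0017 and 0.01 over all tested genes. H2-Eb2, a further beta chain, was even at -1.0 ± 0.36, -0.99 ± 0.43 and -1.10 ± 0.33 at day 10, at day 30 and in control (SD, n = 5 each). H2-Ob, a chain of the H2-DM inhibitor H2-O, differed by -1.20 at day 30 against control on the brighter probe and by 0.52 on another, and H2-Oa was detected on 3 arrays only. H2-DMb2 differed by -1.68 and -2.0 at day 10 and day 30 and was detected on 5 arrays. Of the lysosomal enzymes, Ctss, the cathepsin that trims the invariant chain, differed by 1.10 and -0.10 (SE 1.41 each) and was detected on 8 arrays. Ifi30, a thiol reductase, differed by 0.72 and -0.01 (SE 1.23 each). On day 10 replicate 5 Ifi30 stood at 3.33, against -2.27 to -0.96 on the other day 10 arrays.

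The promoter factors and inducers of class II were about evenly split, with 9 of 18 higher at day 10 and 10 of 18 at day 30 than in control, and medians of 0.02 and 0.20. Of the RFX subunits, Rfx5 differed by -0.60 and -1.18 and Rfxank by 2.10 and 0.28 at day 10 and day 30, and Rfxap was detected on 4 arrays. Ifng, the cytokine that induces Ciita, had mean levels of -0.01 ± 1.18 at day 10, -1.09 ± 2.91 at day 30 and 1.14 ± 1.06 in control (SD, n = 5 each). Its day 30 difference of -2.23 had an unadjusted p of 0.061 (adjusted 0.927, limma). Irf1, an interferon-induced factor, was higher at day 30 than at day 10 by 1.33 ± 0.54 (unadjusted p = 0.0256, adjusted 0.999, limma) and by 1.50 on its other probe. Against control the Irf1 probes disagreed at day 30, with 0.76 and -1.27. The histone demethylase gene Kdm6b differed by 0.03 and 0.97 from control.

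MHC class I presentation displays peptides from inside the cell and is used by T cells themselves. None of its 15 genes passed the adjusted threshold. Of the 15, 14 were higher at day 10 and 15 at day 30 than in control, with median differences of 0.40 and 0.69. At day 30 against day 10, 14 were higher with a median of 0.30, beside 0.06 over all tested genes. Of all 25984 tested genes 12968, 13060 and 13787 were higher in these comparisons. With only probes detected on all 15 arrays the class I medians were 0.39, 0.69 and 0.31 over 14 genes. Over all such genes they were 0.05, 0.21 and 0.18, so brightly detected genes also ran higher at day 30. The class I counts moved with control replicate 1 and with the share of detected spots. Without control replicate 1, which had the lowest summed level of CD4 T cell markers (51.5, against 119 to 298 on the other controls) and the highest share of detected spots, 8 of 15 genes were higher at day 10 and 13 of 15 at day 30, with medians of 0.03 and 0.33. With detection share as the covariate 7 of 15 were higher at day 10 and 4 of 15 at day 30 than in control, and 3 of 15 at day 30 than at day 10, with medians of -0.02, -0.41 and -0.35. With the 75th percentile taken over detected probes the medians were 0.31, 0.31 and 0.0040, beside -0.09, -0.38 and -0.24 over all tested genes. The comparisons share arrays, and the class I chain genes are close copies whose probes may read each other. Tap1, a chain of the peptide transporter, differed by 2.76 ± 1.10 at day 10 (unadjusted p = 0.0231, adjusted 1.00, limma). Its partner Tap2 differed by 1.74 ± 0.68 at day 30 (unadjusted p = 0.0219, adjusted 0.927, limma), as did Psmb10, an immunoproteasome subunit, by 1.76 ± 0.79 (unadjusted p = 0.0410, adjusted 0.927, limma). H2-K1, a class I heavy chain, had mean levels of 7.55 ± 0.42 at day 10, 7.87 ± 0.36 at day 30 and 7.16 ± 0.88 in control (SD, n = 5 each).

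Of the costimulatory genes, 4 of 5 were higher at day 10 and 3 of 5 at day 30 than in control. Cd86, the ligand of CD28 on antigen-presenting cells, was detected on 8 of 15 arrays and differed by 0.47 and -0.44, and Icosl differed by -2.44 at day 10 (unadjusted p = 0.0867, adjusted 1.00, limma).

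**Figure D4:**
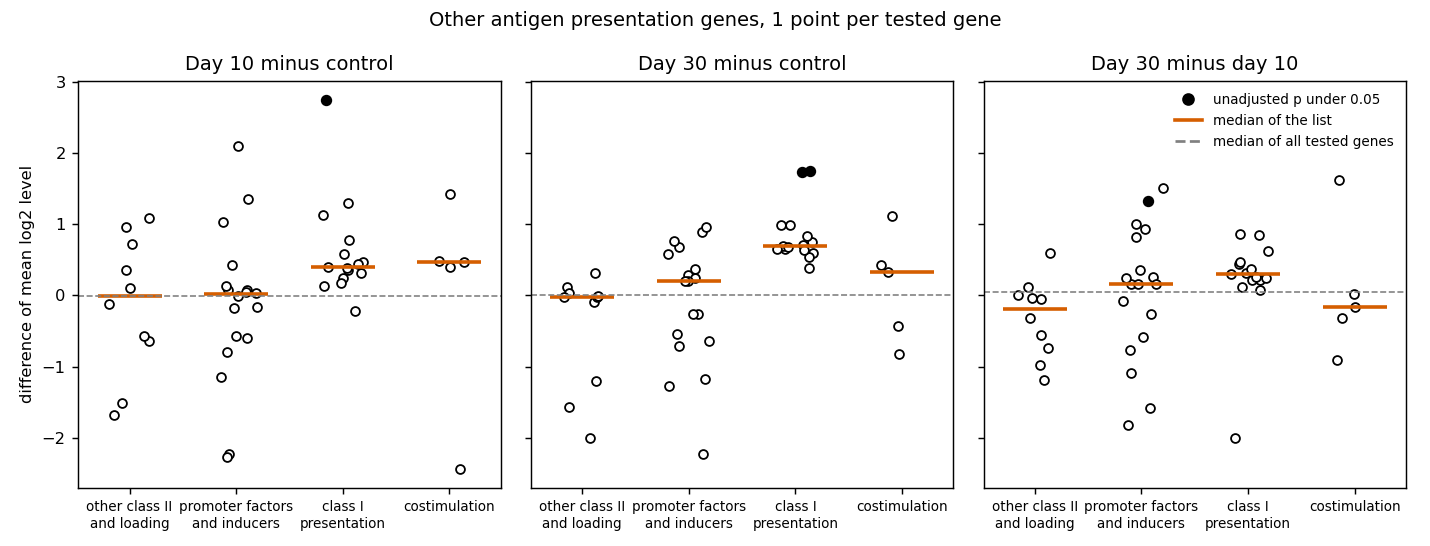
Difference of mean log2 level of each tested gene on the 4 lists of antigen presentation genes, for day 10 minus control, day 30 minus control and day 30 minus day 10, with orange bars for list medians, a dashed line for the median of all tested genes and filled points for an unadjusted p under 0.05. The class I list has its median at 0.40, 0.69 and 0.30, which turn negative once the detection share is a covariate, and the other class II list at -0.01, -0.02 and -0.18.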

How the data were processed

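The scanner files give spot intensity on a linear scale, from Agilent Feature Extraction version 10.7.3.1 under protocol GE1_107_Sep09 with a grid of build mm9, per the file headers. RNA was amplified with SuperAmp, a commercial method for small samples, before Cy3 labelling, per the labels' protocols. The deposited value table holds log2 values on a scale with a slope of 0.535 to 0.730 against log2 processed intensity, and how it was made is not given in the sources used here. It served as an alternative.

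Control and outlier spots were left out, spots of a probe were averaged, and log2 of the processed intensity was taken minus the array's 75th percentile. The brightest probe on average stood for a gene, which was tested where 5 or more of the 15 arrays had it well above background. Saturated spots numbered 0 on every array. The 3 groups entered a joint limma fit (version 3.58.1, R 4.3.3, lmFit and eBayes with trend, two-sided), with Benjamini-Hochberg adjustment over 25984 genes. Since separate animals are not stated, p-values reflect the spread between samples alone, and that spread may be technical. The fit was tested on simulated data. The 7 genes, the 4 lists and the markers were chosen with earlier results of these data known. Named were all 7 genes, on the 4 lists every gene at an unadjusted p under 0.05, the 3 genes of smallest p in each comparison and a set of genes fixed for their roles, and the 5 genes most like H2-Aa and Cd74. Of 55681 probes 31461 were named through RefSeq. No genome of build mm9 was used. Some items are not reported here. The number of arrays limits the precision.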

Additional observations from a re-analysis of the deposited data

Results flagged for a closer look

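Within groups of 5, 12 of 99 sets of values held an array set apart from the other 4 by more than Dixon's limit, where chance gives about 5% (12.1% here). Among the class II genes, H2-Aa had a level of -0.36 on day 10 replicate 1, against -5.91 to -4.75 on the other day 10 arrays. H2-DMa had -5.44 on day 10 replicate 5, against 0.36 to 2.27. The dimmer H2-DMb1 probe had -3.69 on control replicate 5, against -6.47 to -6.04, and this was the only array on which it was detected.

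Of the antigen processing genes, day 10 replicate 5 stood low in Ctss at -6.05 (others -1.50 to -0.14) and high in Ifi30 at 3.33 (others -2.27 to -0.96). Day 30 replicate 5 was also high in Ifi30 at 2.75 (others -3.40 to -1.82). H2-DMb2 had -2.42 on day 30 replicate 2 (others -5.80 to -5.0), and H2-K1 had 6.85 on day 10 replicate 2 (others 7.57 to 7.86). Day 30 replicate 4 was low in Kdm6b at -0.17 (others 2.07 to 2.43) and in Tap1 at -5.64 (others -0.05 to 2.13). The summed dendritic cell and macrophage markers reached 575 on day 10 replicate 3 (others 371 to 419), and the summed group 3 innate lymphoid cell markers reached 52.7 on control replicate 3 (others 6.31 to 14.6).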

How the results depend on the processing

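H2-Aa stayed lower in both dieted groups than in control under all 26 and 25 alternatives run, at -6.26 to -0.80 for day 10 and -5.94 to -1.79 for day 30, and Cd74 stayed higher under all 27 and 26, at 0.61 to 1.54 and 1.26 to 3.83. Not all of these could move a difference. Leaving out an array of the third group, dropping the filter, or averaging the probes of a single-probe gene left it as it was. So did the replicate number as a block, since each number occurs once per group. Raising dim values or keeping only probes detected on all arrays could not move Cd74. For day 10 minus control, slide 1 alone repeated the values with slide as a block. The directions of H2-DMa and H2-DMb1 at day 10 changed under 4 and 10 of 26 alternatives. Genes past the adjusted threshold stayed at 0 in each comparison except for 1 with slide as a block at day 30 against control (Vkorc1l1, adjusted p = 0.00863, named after its value was seen), and 0 to 1, 0 to 2 and 0 to 2 when single arrays were left out (Olfr1201, and As3mt with Suclg2, likewise). Genes at an unadjusted p under 0.05 numbered 648 to 930, 1119 to 2263 and 987 to 1309 without single arrays, with 930 and 2263 without control replicate 3. They numbered 1038 and 2009 against control with the deposited log2 values, 1059 at day 10 with no filter on dim probes, 1134 at day 10 with the detection share as a covariate, and 223, 697 and 374 with probes detected on all 15 arrays only; there fewer genes were tested. Of the 48 listed genes, at day 10 against control, 2 passed under quantile normalization, the percentile over detected probes, the deposited values, dim values raised or the detection covariate, and 0 with slide as a block or probes detected on all arrays. In that order 790, 646, 1038, 796, 1134, 587 and 223 passed over all genes tested in each setting. At day 30 against control 1 listed gene passed with normexp or slide as a block and 8 with the detection covariate. Over all tested genes 1093 passed with normexp and 953 with slide as a block. The most under any setting other than leaving out single arrays was 2009. Whether the 8 exceed a general rise in calls was not tested. At day 30 against day 10, 2 listed genes passed under quantile normalization, the percentile over detected probes or the detection covariate, and 0 with the deposited values or the mean of all probes. Over all tested genes 1009 passed under quantile normalization and 1103 with the percentile over detected probes. The deposited values gave 975 and the mean of all probes 1084. The most under any setting other than leaving out single arrays was 1333. Without single arrays 0 to 5, 1 to 9 and 0 to 2 listed genes passed, with 5 and 9 without control replicate 3. Counts on the 4 lists under these alternatives were added after seeing the data, and with the detection covariate the class I medians turned to -0.02, -0.41 and -0.35. The causes were not tested. Same-numbered arrays of different groups showed little shared deviation (median r 0.00963, beside 0.00327 for different numbers). Nothing in the labels says that the numbers pair samples, and these r values cannot exclude a weak pairing. With the replicate number as a block 721, 1372 and 1125 genes passed unadjusted, 0 adjusted, and 4 listed genes at day 30 against control. Keeping only probes detected on all arrays gave no value for H2-Aa, H2-Eb1, H2-DMa and H2-DMb1. Probes near background limit H2-Aa, H2-Eb1 and H2-DMb1.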
